A study of Mus musculus with 4 samples.

Results

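RNA of the split-ends family genes *Spen*, *Rbm15* and *Rbm15b* was examined in mouse embryonic stem cells (mESCs). The genes were chosen by family, and they are 3 of the 37310 genes in the count table. RNA-seq libraries came from 2 groups, with 2 libraries in each. One group is the wild-type (WT) HATX line. The other is labelled *Spen* knockout (KO) clone 2 in the HATX background. Both are of mixed genomic background and were grown on gelatin in medium with serum and LIF, and the labels state no treatment. Per the study, both carry an *Xist* transgene that doxycycline switches on, and the cells are haploid, which was not measured here. Each group is 1 cell line and the KO group is 1 clone, so other differences between the lines cannot be told apart from the *Spen* genotype.

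Split-ends proteins join RNA recognition motifs at one end to a SPOC domain, a protein-binding fold, at the other. Spen (also called SHARP or MINT) is a very large corepressor that binds *Xist* RNA, brings histone deacetylase complexes to the X chromosome, and also represses targets of the Notch factor RBPJ. Rbm15 and Rbm15b are smaller relatives that bring the m6A writer complex, which methylates adenosines in RNA, to its substrates, *Xist* among them, and both are linked to RNA export.

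Total counts per library ranged from 36667685 to 61908422, with 21850 to 22591 genes detected. All 9 embryonic stem cell markers tested were at 3500 or more normalized counts (counts divided by the library's size factor) in every library. Whether the replicates came from separate cultures is not stated in the sources used here, so p-values measure only the spread between these libraries, which may be technical. With 2 libraries against 2, an exact permutation test of a single value cannot go below a two-sided p of 0.333, and p-values below are therefore from DESeq2's model over all genes. In bulk RNA, fewer cells of a type and less RNA per cell cannot be told apart.

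The gene models of the 3 members differ widely. *Spen* (ENSMUSG00000040761.9) lies on chromosome 4 from 141023805 to 141094512 on the minus strand of mm9. Its longest transcript has 16 exons and 12299 bases, of which a single exon of 8020 bases makes up 65.2%, and its coding sequence is 10929 bases long. *Rbm15* (ENSMUSG00000048109.8, chromosome 3, 107128863 to 107136591, minus strand) has 2 exons and 3819 exonic bases, with 2886 coding bases. *Rbm15b* (ENSMUSG00000045365.7, chromosome 9, 106786316 to 106789331, minus strand) is a single exon of 3016 bases, of which 2661 are coding. Little of their sequence is repeated. Of the 32-base words in the exons, 1.01% of those in *Spen*, 0 in *Rbm15* and 5.53% in *Rbm15b* occur elsewhere in the genome.

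The start regions of the 3 genes are shown because they differ in base composition and in 2 short motifs. Each runs from 250 bases before to 50 bases after the RefSeq start, on GRCm38.p6, a later build than the mm9 of the counts, and reads 5′ to 3′ on the minus strand. The regions are chr4:141538548-141538847 for *Spen*, chr3:107333240-107333539 for *Rbm15* and chr9:106887026-106887325 for *Rbm15b*. Capitals mark the RBPJ core TGGGAA and the YY1 motif AAGATGGC, both searched on either strand.
Spen: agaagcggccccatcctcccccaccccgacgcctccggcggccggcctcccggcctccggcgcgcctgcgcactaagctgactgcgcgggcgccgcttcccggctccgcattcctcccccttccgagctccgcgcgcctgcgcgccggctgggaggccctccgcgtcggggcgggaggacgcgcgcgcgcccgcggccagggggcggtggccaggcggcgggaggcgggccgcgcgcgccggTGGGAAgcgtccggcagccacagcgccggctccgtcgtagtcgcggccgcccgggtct
Rbm15: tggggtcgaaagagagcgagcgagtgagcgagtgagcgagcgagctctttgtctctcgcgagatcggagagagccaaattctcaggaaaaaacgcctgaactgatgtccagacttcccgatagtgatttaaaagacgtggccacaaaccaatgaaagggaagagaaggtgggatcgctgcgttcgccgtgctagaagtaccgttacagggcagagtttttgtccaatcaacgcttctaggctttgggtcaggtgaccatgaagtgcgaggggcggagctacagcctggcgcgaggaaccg
Rbm15b: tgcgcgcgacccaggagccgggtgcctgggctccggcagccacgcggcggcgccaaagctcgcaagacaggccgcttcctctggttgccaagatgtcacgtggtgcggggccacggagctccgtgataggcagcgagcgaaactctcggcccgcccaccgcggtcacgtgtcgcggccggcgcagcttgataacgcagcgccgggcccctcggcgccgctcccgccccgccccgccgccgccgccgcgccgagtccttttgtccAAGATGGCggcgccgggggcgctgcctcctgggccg
The *Spen* region had 54 CG dinucleotides, more than 99.7% of the 32851 RefSeq promoters of this length, and 81.7% GC. *Rbm15b* had 46 CG dinucleotides (more than 98.4% of promoters) and 75.3% GC. *Rbm15* stood apart from both, with 23 CG dinucleotides (more than 78.5%) and 54.3% GC. TGGGAA began 8 bases before the *Spen* start, and either orientation of it occurred in 25.6% of all promoters. AAGATGGC began 14 bases after the *Rbm15b* start, and it occurred in 2.75% of promoters. The motifs were chosen after the sequences were seen, and a match is not a binding site.

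*Spen* was examined first, as the targeted gene. WT replicates 1 and 2 held 2803 and 2798 reads of it, or 3716 and 3047 after normalization. KO-labelled replicates 1 and 2 held 8955 and 7976 reads, or 7797 and 6242 after normalization. Both KO-labelled libraries lay above both WT libraries. The means were 3382 ± 473 and 7019 ± 1100 (SD, n = 2), a fold change of 2.08 with a 95% interval of 1.55 to 2.77. On the log2 scale the change was 1.05 ± 0.21 (SE), and DESeq2 gave an adjusted p (Benjamini-Hochberg over all genes) of 7.7e-06. RNA of the targeted gene was thus higher in the libraries labelled KO, so its level does not check the label. All directions given here assume that the labels are right. The study describes the knockout as a deletion of all or most of the gene. Counts per gene do not resolve exons, so which exons the KO-labelled reads came from was not analysed here.

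*Rbm15* rose by less. Its normalized counts were 4451 and 4411 in WT and 5882 and 6145 in the KO-labelled libraries, and the groups did not overlap. The means were 4431 ± 27.8 and 6014 ± 186 (SD, n = 2), a fold change of 1.36 (95% interval 1.22 to 1.51). On the log2 scale this was 0.44 ± 0.08 (SE), with an adjusted p of 9.79e-08 from DESeq2.

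*Rbm15b* did not pass the test. Its normalized counts were 3918 and 3916 in WT and 4164 and 4404 in the KO-labelled libraries. Both KO-labelled libraries again lay above both WT libraries, by a small margin. The fold change was 1.09 with an interval of 0.981 to 1.22, which includes both a small decrease and a rise nearly as large as the lower bound for *Rbm15*. On the log2 scale this was 0.13 ± 0.08 (SE), with an adjusted p of 0.23 from DESeq2. When each chromosome's median log2 fold change was removed, it was -0.004, since the chromosome 9 median itself was 0.134.

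A gene was called when it changed 2-fold or more with an adjusted p under 0.001, the thresholds of the study. By this rule 1 of the 3 members, *Spen*, was called higher, against 1.36% of the 17710 genes tested, and 0 were called lower, against 3.15% (4.51% in either direction). At an adjusted p under 0.05, 2 of the 3 members were higher and 0 lower, against 16.4% and 15.8% of genes tested (32.3% in either direction). After chromosome medians were removed, 2 of the 3 were again higher and 0 lower, against 12.4% and 14.8% of the 17230 genes given an adjusted p in that fit. All 3 had both KO-labelled libraries above both WT libraries, which 35.4% of genes tested also had, while 34.8% had them below. *Spen* had a larger log2 fold change than 96.5% of genes tested, *Rbm15* than 84.5% and *Rbm15b* than 61.1%. The *Spen* call depended on single libraries. Without WT replicate 2 its log2 fold change was 0.92 (adjusted p 0.00741), and without KO-labelled replicate 1 it was 0.89 (4.31e-09), under the 2-fold minimum.

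**Figure D1:**
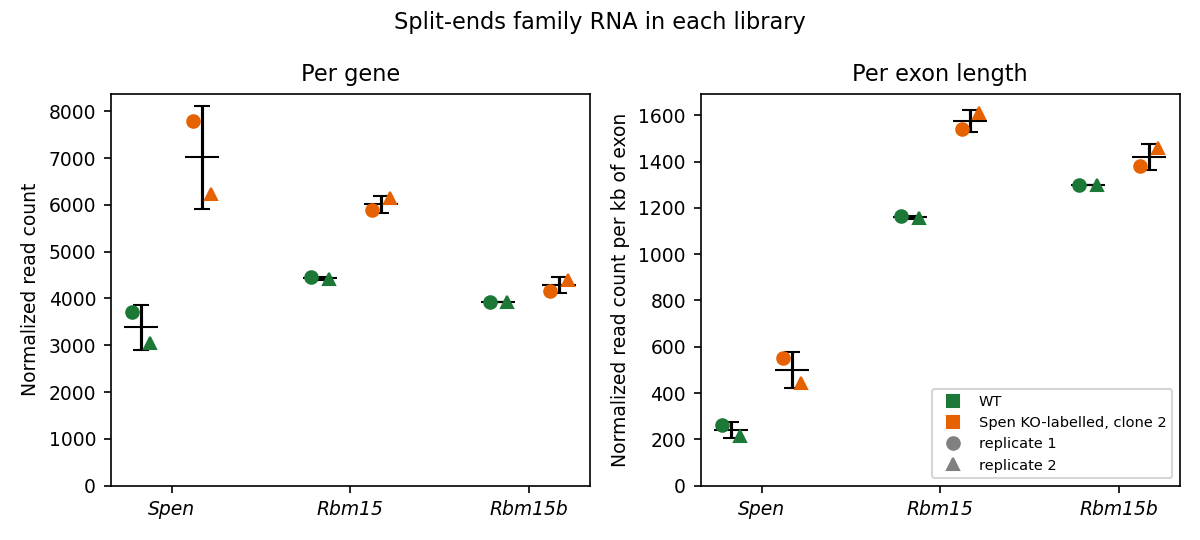
Normalized read count per gene (left) and per kb of exon (right) of *Spen*, *Rbm15* and *Rbm15b* in each library. Points are libraries, horizontal lines group means and bars ± 1 SD (n = 2), and in both panels *Spen* has the widest SD bars. The gap between group means is largest for *Spen* per gene and for *Rbm15* per kb.

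**Figure D2:**
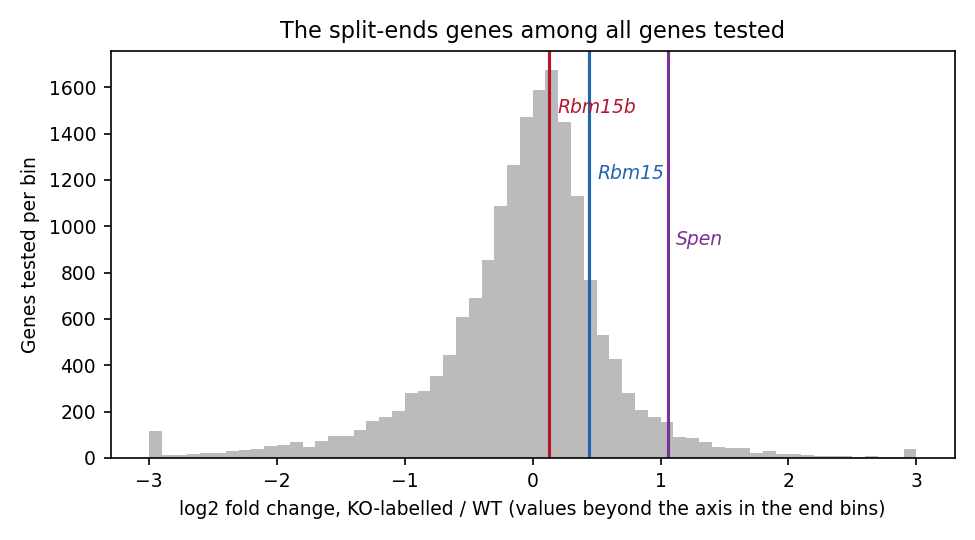
Number of genes tested (vertical axis) by log2 fold change of KO-labelled over WT (horizontal axis, values beyond the axis in the end bins), with a line for each split-ends gene. *Rbm15b* at 0.13 falls near the peak, *Rbm15* at 0.44 on the right shoulder and *Spen* at 1.05 in the right tail.

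Replicates of *Spen* differed more than those of its relatives. On a log2 scale replicate 1 exceeded replicate 2 by 0.29 in WT and 0.32 in the KO-labelled group. Among 3004 genes within 2-fold of the mean count of *Spen*, a difference as large was found for 3.23% in WT and for 1.73% in the KO-labelled group. For *Rbm15* the differences were 0.01 and -0.06, and for *Rbm15b* 0.00 and -0.08. The WT libraries of *Rbm15b* were nearly equal, with an SD of 1.25 around a mean of 3917.

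Levels of the 3 genes were compared per kb of annotated exon, since *Spen* is several times longer. In WT, *Rbm15b* was highest at 1299 ± 0.413 normalized counts per kb, *Rbm15* followed at 1160 ± 7.27, and *Spen* was lowest at 240.0 ± 33.6 (SD, n = 2). No libraries of neighbours in this order overlapped. In the KO-labelled libraries *Rbm15* was highest at 1575 ± 48.8, above *Rbm15b* at 1420 ± 56.4, with *Spen* again lowest at 498.2 ± 78.1. The order of *Rbm15* and *Rbm15b* by this measure thus differed between the groups. It was not corrected for repeated sequence (5.53% of the 32-base words of *Rbm15b* and 0 of *Rbm15*). Which of these 2 genes had more RNA within a group is therefore less certain than the change in their ratio. Their ratio was 0.897 and 0.890 in WT against 1.12 and 1.10 in the KO-labelled group. *Spen* stood at 0.226 and 0.187 of *Rbm15* in WT and at 0.359 and 0.275 in the KO-labelled group. The summed level of the family was 2728 and 2670 per kb in WT and 3474 and 3512 in the KO-labelled libraries. *Spen* made up 9.67% and 8.10% of that sum in WT and 15.9% and 12.6% in the KO-labelled libraries, while the share of *Rbm15b* was 47.6% and 48.6% against 39.7% and 41.6%. The share of *Rbm15* moved least, from 42.7% and 43.3% to 44.3% and 45.8%. These levels divide by all annotated exons. If part of *Spen* is deleted in the KO-labelled cells, the remaining exons are shorter than that length, and the KO-labelled *Spen* level per kb, its ratios and all family shares there would differ.

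A second row also carries the symbol *Rbm15b* (ENSMUSG00000074102.2, chromosome 9, 106783260 to 106784620), 1695 bases from the first. It had 0 counts in all 4 libraries, which allows up to 3 counts in each, for counting error only. All of its 1361 exonic bases lie in exons of *Vprbp* on the other strand. Every one of the 155 rows whose exons lie wholly in exons of opposite-strand genes was at 0, as were all 333 such rows on the same strand, against 31.9% of all rows. The 0 therefore says nothing about the RNA of this second row. *Vprbp* had a log2 fold change of 0.16 ± 0.07 (adjusted p 0.0854). Both *Rbm15b* rows also lie in an intron of a transcript of *Manf*, a gene for a secreted stress-protective factor. *Manf* rose from 4440 ± 91.9 to 6517 ± 6.10 normalized counts (SD, n = 2), with a log2 fold change of 0.55 ± 0.08. The part of *Manf* in the *Rbm15b* count was not tested.

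The genes around each member were compared next. Of 10 nearby tested genes (5 on each side, among those reported here), 5 were higher and 1 lower at an adjusted p under 0.05 around *Spen*, with a median log2 fold change of 0.86 and 3 of them called. Around *Rbm15* 0 of 10 passed in either direction (median 0.06). Around *Rbm15b* 2 were higher, *Rad54l2* (0.21) and *Tex264* (0.30), and 1 was lower, *Mapkapk3* (-0.25), with a median of 0.22. *Manf*, which spans *Rbm15b* and lies on neither side, is not among these 10, whereas *Zbtb17*, which overlaps only the *Spen* end, is among those of *Spen*. Over all genes tested 16.4% were higher and 15.8% lower by this rule, 4.51% were called, and the median was 0.005.

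All 3 called genes lay on the 3′ side of *Spen*. There, the nearest 4 genes reported here all rose (adjusted p under 0.05), 3 of them past the call thresholds. Nearest is *Zbtb17*, which encodes the Myc-binding transcription factor Miz-1 and overlaps the *Spen* 3′ end by 41 exonic bases on the other strand. *Zbtb17* had 1667 and 1561 normalized counts in WT and 2699 and 2889 in the KO-labelled libraries, a log2 fold change of 0.79 ± 0.10 (adjusted p 1.11e-14), under the 2-fold minimum. *Gm694*, on the same strand as *Spen*, rose from 51.7 and 37.0 to 1010 and 1012, a log2 fold change of 4.53 ± 0.23 (adjusted p 4.29e-85). The KO-labelled libraries thus held this RNA at a fold of 23.1 over a low WT level. *Hspb7*, a small heat shock protein gene of heart and muscle, had 0 reads in each WT library, against 26 and 49 in the KO-labelled group, at least 8.42-fold higher against a floor of 3 counts per library (adjusted p 0.000152).

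*Fam131c* had 84.8 and 93.7 normalized counts in WT and 380.5 and 285.6 in the KO-labelled libraries, a log2 fold change of 1.90 ± 0.27 (adjusted p 2.66e-11). Beyond it *Epha2*, an ephrin receptor gene, was lower (-0.36 ± 0.07, adjusted p 9e-07), but not past 0.05 with chromosome medians removed (0.0676). On the 5′ side 0 of 10 genes were called, and only *Slc25a34* passed 0.05 (1.59 ± 0.63, adjusted p 0.0379), though its adjusted p rose to as much as 0.328 over the other settings. Of these 10, 6 passed 0.05 and were higher with chromosome medians removed, against 12.4% of all genes in that fit, so at this threshold the difference between the sides depends on the fit. The span of 10 genes per side was chosen after the nearest 5 were seen. Over all other settings tried, the adjusted p of the 4 higher genes on the 3′ side was at most 0.000845 wherever one was given. The median over chromosome 4 was -0.206, of opposite sign to these genes.

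**Figure D3:**
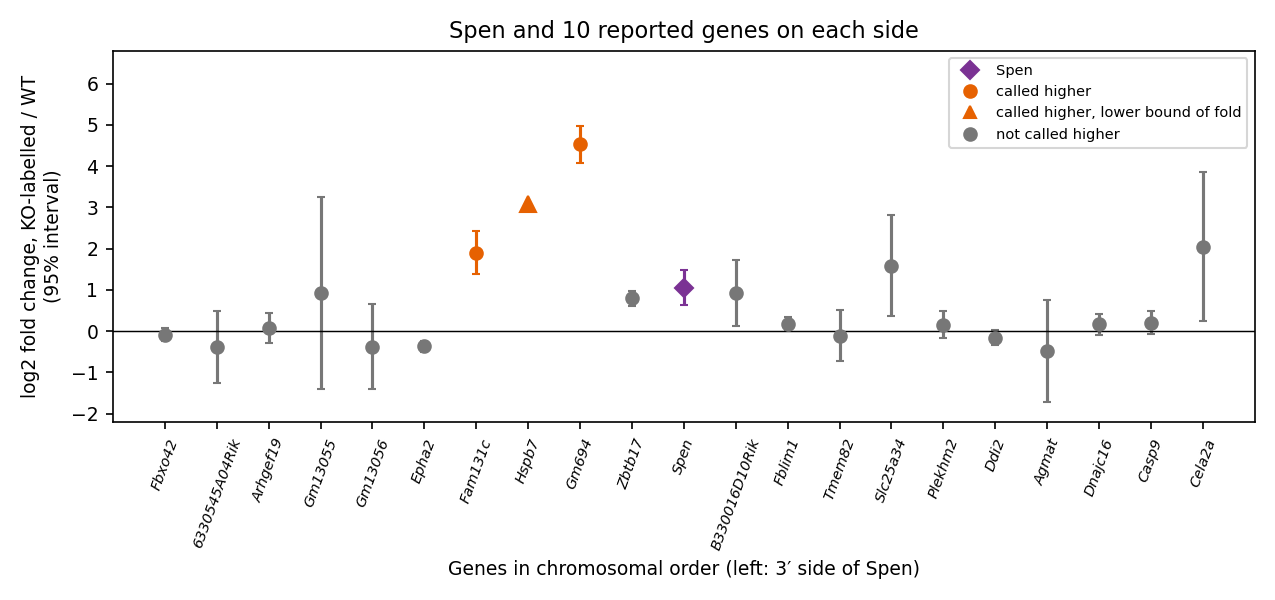
Log2 fold change of KO-labelled over WT (vertical axis, bars 95% intervals) for *Spen* and 10 reported genes on each side, in chromosomal order. The 3 genes called higher all lie to the left of *Spen*, its 3′ side, and the triangle for *Hspb7* is a lower bound.

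*Rbm15* and *Rbm15b* work in the m6A writer complex, whose other subunits were examined as a list. Of 6, 1 was higher and 1 lower at an adjusted p under 0.05, 0 were called, and the median log2 fold change was -0.01. When any 1 library was left out, 1 of the 6 passed. *Mettl3*, the catalytic subunit, had 2127 and 2012 normalized counts in WT and 2442 and 2432 in the KO-labelled libraries. Its log2 fold change was 0.24 ± 0.09 (adjusted p 0.0362), which did not pass with chromosome medians removed (0.236). *Virma*, the scaffold subunit, annotated as *1110037F02Rik* (the names are synonyms in RefSeq), fell from 6242 and 5846 to 3818 and 4021 normalized counts. Its log2 fold change was -0.62 ± 0.08 (adjusted p 1.62e-13), and -0.42 (2.32e-06) with chromosome medians removed. *Virma* is on chromosome 4, as is *Spen*. The other 4 did not pass. With chromosome medians removed *Wtap* did (0.25, adjusted p 0.00266), so that 1 of the 6 was again higher and 1 lower. *Mettl14*, the partner of *Mettl3*, had -0.14 (adjusted p 0.352), and *Wtap*, which holds the complex together, 0.12 (0.216). *Zc3h13*, which anchors it in the nucleus, had 0.20 (0.0718, and 0.0494 by edgeR's quasi-likelihood test), and *Cbll1*, also called Hakai, -0.24 (0.328).

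Of the other genes with a SPOC domain, both that were tested were higher. *Dido1*, a chromatin reader gene, had 14100 and 13300 normalized counts in WT and 17600 and 18230 in the KO-labelled libraries, a log2 fold change of 0.39 ± 0.07 (adjusted p 1.84e-07). *Phf3*, which encodes a protein that binds RNA polymerase II, had 7523 and 7587 against 9176 and 8811, a log2 fold change of 0.25 ± 0.07 (adjusted p 0.00191). *Phf3* did not pass with chromosome medians removed (0.105). *Spocd1*, known from piRNA-directed silencing in germ cells, was near 0 in every library, at most 8.71 normalized counts.

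Among m6A readers and erasers, 5 of 11 were higher and 1 lower at an adjusted p under 0.05, with a median of 0.21 and 0 called. The reader genes *Igf2bp2* (0.82 ± 0.13, adjusted p 1.28e-08), *Ythdf1* (0.40 ± 0.08, 2.1e-06) and *Hnrnpa2b1* (0.28, 0.000138) rose, and *Igf2bp3* fell (-0.24, 0.0334). The list of corepressors that bind the SPOC domain of Spen had 4 of 6 higher and 1 lower (median 0.29, 0 called). *Ncor1*, a nuclear receptor corepressor, rose (0.64, adjusted p 1.03e-09), as did the deacetylase gene *Hdac3* (0.33, 0.000402) and *Gps2* (0.44, 0.0031). *Tbl1x*, another subunit of the same complex, fell (-0.34, 9.31e-05). With chromosome medians removed 1 of the 6 was higher, *Ncor1*, and 1 lower, *Tbl1x*, while *Hdac3* (adjusted p 0.0521) and *Gps2* (0.10) did not pass.

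Other *Xist*-binding proteins had 4 of 14 higher and 0 lower, with a median of 0.09 and 0 called. *Ciz1*, a nuclear matrix protein gene, had the lowest adjusted p of the list (0.71 ± 0.17, 0.00014), followed by *Celf1* (0.28, 0.00145) and *Ythdc1* (0.26, 0.00395). With chromosome medians removed 6 of the 14 were higher and 1 lower, and *Celf1* did not pass (0.17, 0.0814). Of the RNA export partners of Rbm15, 4 of 8 were higher and 1 lower (median 0.20, 0 called). The export receptor gene *Nxf1* rose (0.47, adjusted p 2.89e-09), as did *Thoc1* (0.36, 8.89e-05) and the helicase gene *Ddx19b* (0.28, 0.0034), and *Thoc2* fell (-0.24, 0.0461). With chromosome medians removed 1 of the 8 was higher and 1 lower, and *Nxf1* (0.09, 0.408), *Ddx19b* (0.17, 0.103) and *Thoc2* (-0.18, 0.162) did not pass. The lower gene in that fit was *Thoc4* (-0.25, 0.0078), named after its values were seen. Over all genes tested 16.4% were higher and 15.8% lower by this rule, and 12.4% and 14.8% with chromosome medians removed.

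**Figure D4:**
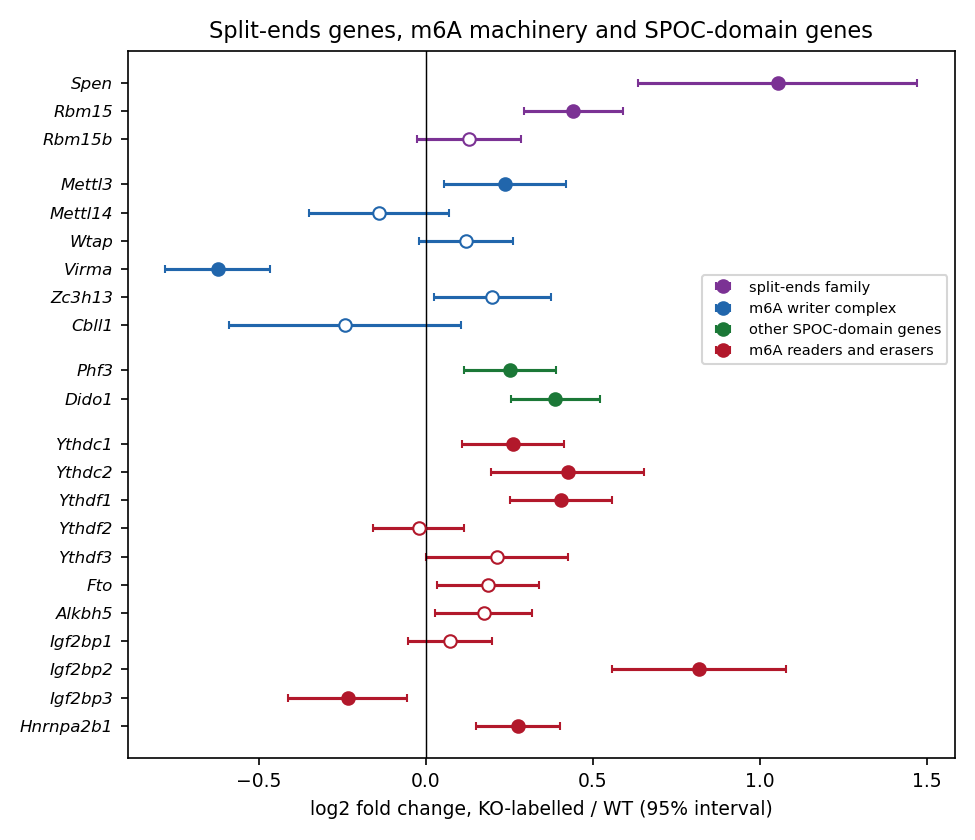
Log2 fold change of KO-labelled over WT (horizontal axis, bars 95% intervals) for the split-ends genes, m6A writer subunits, other SPOC-domain genes and m6A readers and erasers. Filled points passed an adjusted p of 0.05, and among the genes drawn, those with an adjusted p, *Virma* at -0.62 is the lowest and *Spen* at 1.05 the highest.

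Markers of other cell types also differed between the groups. Fibroblast markers summed to 210.8 and 222.2 normalized counts in WT and 471.1 and 537.6 in the KO-labelled libraries, with *Thy1* called higher (1 of 5 tested) and *Postn*, *Lum* and *Dcn* at most 8.71. Without *Thy1* the sums were 92.8 and 84.9 against 114.9 and 123.6, and of the other 4 tested *Col1a1* (0.98) and *Pdgfrb* (0.57) had positive and *Col1a2* (-1.20) and *Col3a1* (-0.25) negative log2 fold changes. None of the 4 passed by DESeq2, while *Col1a1* had an adjusted p of 0.0399 by edgeR, and the median of the 5 tested was 0.57. Primitive endoderm markers summed to 493.2 and 553.2 against 272.5 and 222.2, with *Gata4* and *Sox7* lower (2 of 4). Neural markers summed to 9318 and 9313 against 8211 and 8562, with 0 of 4 higher and 2 lower, *Pax6* and *Neurod1* (3 lower with chromosome medians removed). Most of these sums was *Tubb3*, at 7801 and 7817 in WT, with a log2 fold change of -0.05. *Pax6* (-2.33) and *Neurod1* (-2.41) fell further and were called lower. At an adjusted p under 0.05, 16.4% of all genes tested were higher and 15.8% lower. *Sox1* and *Map2* of that list were not matched and are not analysed here. Of stem cell markers 2 of 9 were higher, *Dppa5a* and *Zfp42*, with a median of 0.01. With chromosome medians removed neither passed (adjusted p 0.0834 and 0.255) and 2 other markers did, *Esrrb* and *Klf4*, named after their values were seen. The part of these shifts in the levels of the split-ends genes was not tested.

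For each member the genes with the most similar pattern over the 4 libraries were sought among 13306 genes, by the root mean square difference of centred log2 values. Nearest to *Spen* were *5830428H23Rik* (0.040), *RP24-263P17.1* (0.043) and *Rnf144b* (0.044). *Rbm15* had closer matches, *Cox15* (0.006), *Prkcsh* (0.008) and *Wdr85* (0.010). *Rbm15b* had the closest, *Gemin7* (0.003), *Dhx29* (0.006) and *Vps33a* (0.007). With 4 values per gene and this many genes searched, close matches can arise without any link between the genes. More genes tested had a log2 fold change near that of *Rbm15b* (1674 from 0.1 to 0.2) than near that of *Spen* (156 from 1.0 to 1.1).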

How the data were processed

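RNA was sequenced from 2 WT and 2 KO-labelled libraries. By the study's methods the libraries keep strand and were depleted of ribosomal RNA, reads were mapped to mm9 with STAR, and the authors assigned them to GENCODE vM1 genes with featureCounts. The deposited table holds these counts unnormalized. Versions, the strand setting and the handling of ambiguous reads are not given in the sources used here. All 155 rows lying wholly in exons of opposite-strand genes were at 0. The counts are therefore not read here as specific to a strand. All 37310 genes matched the annotation, and 11918 had no count. There were 0 columns without a sample.

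The Wald test of DESeq2 1.42.0 (R 4.3.3) was fitted to all counts with group as its one term, default size factors and independent filtering, and p-values were Benjamini-Hochberg adjusted over all genes. edgeR 4.0.16 was an alternative, as were other size factors, a low-count filter, the replicate number as a block, removed chromosome medians and leaving out each library. Values per kb divide by the union of exons. Log2 values for likeness and replicate spread used a pseudocount of 1, and likeness and chromosome medians used genes with a mean of at least 50 normalized counts. Reads carry no molecular identifiers and are not independent molecules, so floors cover counting error alone.

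The members, lists and tests were chosen with earlier results of these data known. Named genes were the members, every m6A writer and SPOC-domain gene, genes overlapping a member, the nearest 5 tested genes on each side, leaving out genes that are not reported here (values where the adjusted p was under 0.05), the 3 most similar genes per member and up to 3 genes per direction of each other list by adjusted p.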

Additional observations from a re-analysis of the deposited data

How the results depend on the processing

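Over 10 alternatives the log2 fold change of *Spen* was 0.89 to 1.26, with an adjusted p under 0.05 in 10 and under 0.001 in 9. That of *Rbm15* was 0.35 to 0.48 (adjusted p 1.14e-08 to 0.0026), and that of *Rbm15b* was -0.004 to 0.18 with 0 of 10 under 0.05 (0.104 to 0.981). The negative value of *Rbm15b*, -0.00413 (adjusted p 0.981), came from removing chromosome medians. The SE of the *Spen* value was 0.213 in the main fit and 0.218 with upper-quartile size factors. It was 0.113 with TMM size factors and 0.107 with the replicate block, so the width of the *Spen* interval depends on the fit.

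Leaving out 1 library gave 0.89 to 1.21 for *Spen*, 0.41 to 0.48 for *Rbm15* and 0.09 to 0.18 for *Rbm15b*, where the lone library was assumed to vary like the other group. *Spen* was 0.92 without WT replicate 2 and 0.89 without KO-labelled replicate 1. Genes called higher numbered 137 to 185 and lower 332 to 404 in these fits, against 241 and 558, and the m6A writer genes past 0.05 were 1 in each, against 2. Without WT replicate 1 the called genes were 172 and 363, without WT replicate 2 they were 185 and 332, without KO-labelled replicate 1 they were 137 and 363, and without KO-labelled replicate 2 they were 158 and 404. With no fold minimum and an adjusted p under 0.05, 2909 genes were higher and 2805 lower. With the longest transcript as its length, *Spen* stood at 274.9 normalized counts per kb in WT.

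Replicates share only a number (correlation of deviations -0.0177 over 13306 genes). With the replicate block, *Spen* was 1.05, *Rbm15* 0.44 and *Rbm15b* 0.13, 192 genes were called higher and 457 lower, and 1 m6A writer gene passed.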
